A study of Sus scrofa with 12 samples.

Results

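High dietary fiber (DF) without N-carbamylglutamate (NCG) was compared with NCG on the low-fiber diet in the endometrium of sows. The samples were chosen by their group in the deposited labels, which gave 3 H − N libraries (7.46% crude fiber, no NCG) and 3 L + N libraries (3.73% crude fiber, 0.05% NCG), 6 of the 12 in the series. All sows were multiparous Landrace × Yorkshire animals that received their diet for 114 days of gestation, and the other libraries came from L − N (the low-fiber diet without NCG) and H + N (the high-fiber diet with NCG). H − N and L + N differ in both fiber and NCG, so this comparison shows how the states after each supplement differ, and the parts of fiber and of NCG in a difference cannot be told apart.

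The endometrium lines the uterus with luminal and glandular epithelium over a stroma that holds vessels and immune cells, and it is remodeled through gestation. DF is fermented in the gut to short-chain fatty acids, which reach other tissues through the blood. NCG is a stable analog of N-acetylglutamate, the activator of carbamoyl phosphate synthetase 1, and thereby supports the synthesis of arginine, the precursor of nitric oxide and polyamines.

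The libraries held 14369781 to 19309724 counts in these groups, and the 8 endometrial identity genes (among them ESR1, PGR and HOXA10) were all detected, with summed levels of 1275 to 1808 CPM (the count as a share of the library size, scaled by TMM) in H − N and 1526 to 1966 CPM in L + N. On the first principal component, with 35.8% of the variance, the L + N libraries lay close together, from −25.4 to −24.5, while H − N replicates 1, 2 and 3 lay at 15.3, −6.06 and 65.2. The second component, with 31.1%, held H − N replicates 1 and 2 at −47.8 and −33.4 and the other libraries from 1.62 to 29.2. H − N replicate 3 therefore stood apart from its group. Differences between the 2 groups made up 32.2% of the sum of squares over genes, against 44.3% within H − N and 23.6% within L + N.

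**Figure D1:**
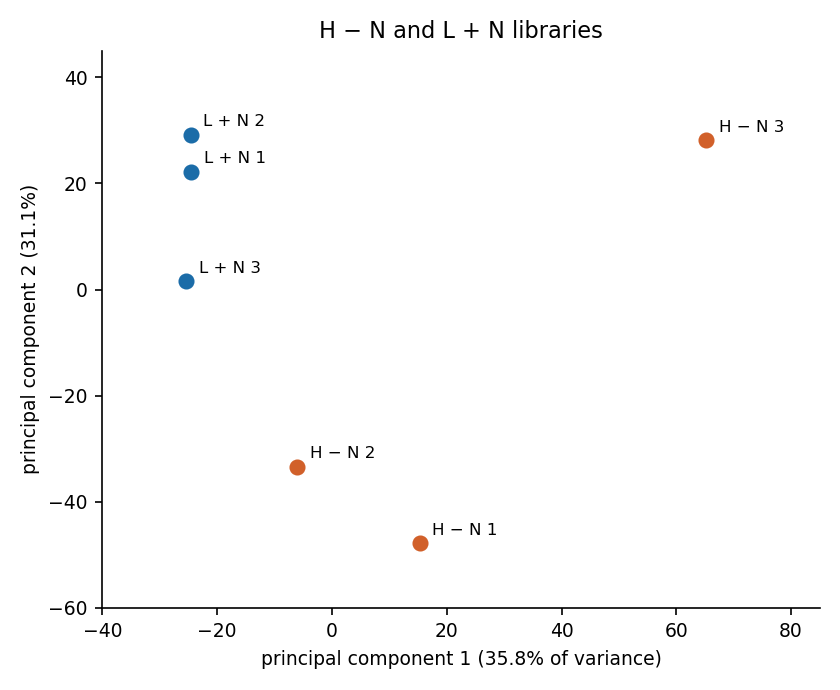
First and second principal components of the log2 CPM values of the 6 libraries, each axis with its share of the variance; each point is a library, blue for L + N and orange for H − N. The L + N libraries sit at −25.4 to −24.5 on the first axis, and H − N replicate 3 sits at 65.2, far from H − N replicates 1 and 2.

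Over 15351 genes tested, no gene differed between H − N and L + N at an adjusted p-value under 0.05 and a log2 fold change above 1 or below −1 (quasi-likelihood test of edgeR, p-values adjusted by Benjamini-Hochberg, so 0% of genes were called). The smallest adjusted p was 0.0917, and 82 genes shared it. Unadjusted p-values under 0.05 were found for 2737 genes, 1231 higher in H − N (8.02% of the genes tested) and 1506 lower (9.81%). Leaving out L + N replicate 1 gave 555 higher genes, leaving out L + N replicate 2 gave 716, and leaving out H − N replicate 1 gave 997 lower genes. Without regard to a model, 2239 genes (14.6%) had every H − N library above every L + N library and 2219 (14.5%) had every H − N library below. Among those with a fold change beyond the threshold, 129 were higher and 454 were lower in H − N, so the larger non-overlapping differences lay mostly on the lower side. DESeq2, the tool of the study, called 287 genes at the same thresholds in the same 12 libraries, 42 higher in H − N (0.274%) and 245 lower (1.6%), while limma-voom called 0, with 2817 genes at an unadjusted p under 0.05. All 287 had an unadjusted edgeR p under 0.05, and 281 had no overlap between the groups. The verdict on single genes thus depended on the tool, and the genes below are described by their values. The 95% interval of the log2 difference had a median half-width of 0.486 over genes and lay wholly between −1 and 1 for 9699 genes (63.2%).

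**Figure D2:**
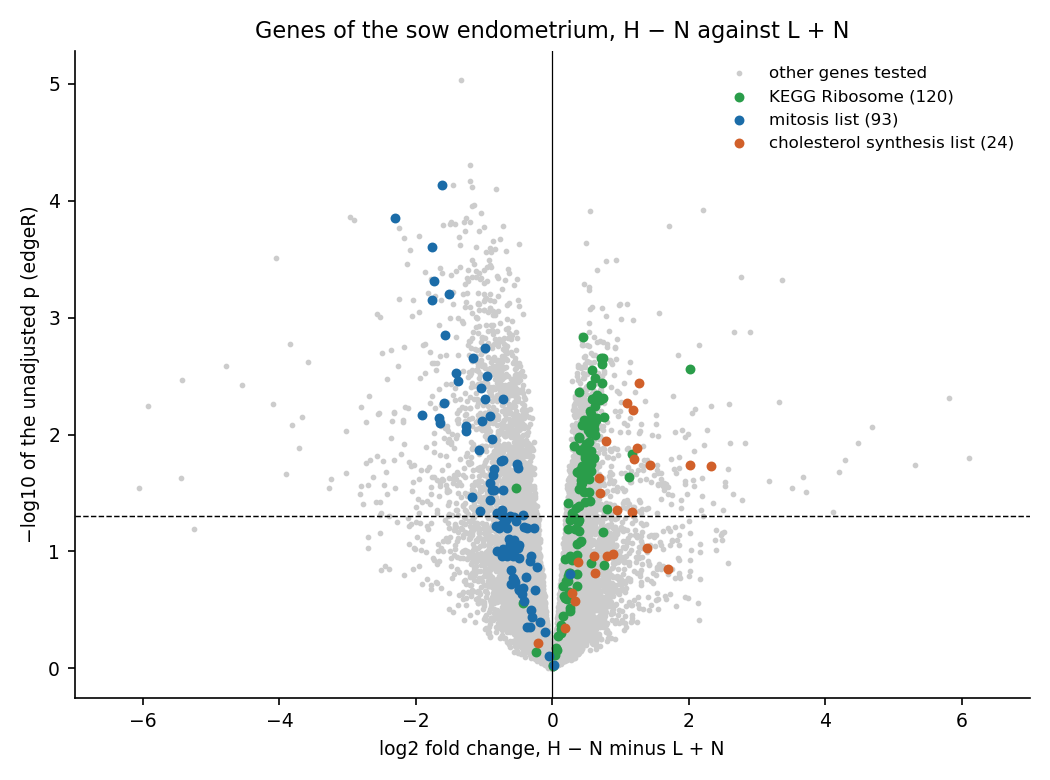
Each point is a gene, with the log2 fold change of H − N minus L + N on the horizontal axis and the −log10 of the unadjusted edgeR p on the vertical axis (dashed line at 0.05); colors mark 93 mitosis genes, 120 genes of the KEGG Ribosome pathway and 24 cholesterol synthesis genes. Mitosis genes lie on the lower side, with a median of −0.70, and Ribosome and cholesterol genes on the higher side, with medians of 0.43 and 0.92.

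Genes of mitosis were lower in H − N than in L + N. Of 93 members tested, 91 had a negative log2 fold change, 71 had every H − N library below every L + N library, 44 had an unadjusted p under 0.05, all of them lower, and 0 passed the adjusted edgeR test. DESeq2 called 18, all lower. Over all genes, 14.5% had every H − N library below every L + N library. At an unadjusted p under 0.05, 9.81% of all genes were lower, and DESeq2 called 1.6% lower. The median log2 fold change of the mitosis genes was −0.70 (all genes, 0.02). As a library level, taken as the median over members of the log2 deviation from each gene's mean over the 12 libraries, mitosis stood at −0.16, −0.13 and −0.02 in H − N and at 0.44, 0.52 and 0.81 in L + N. Without H − N replicate 3 the median was −0.73, with 91 members below 0, and without H − N replicate 1 the members at an unadjusted p under 0.05 numbered 27.

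The condensin subunit SMC4 (chromosome 13, 100078149 to 100120907), which compacts chromosomes, stood at 11.3, 19.6 and 21.5 CPM in the H − N libraries and at 43.5, 63.2 and 52.9 CPM in the L + N libraries. The groups did not overlap, and the log2 fold change was −1.61 (standard error 0.265, edgeR's adjusted p = 0.0917, DESeq2's 1.79e-05). Its gene overlaps TRIM59 on the opposite strand. SMC2, its partner in condensin, stood at 9.90, 18.9 and 17.8 CPM in H − N and 37.0, 48.4 and 47.6 CPM in L + N, and its log2 fold change was −1.52 (standard error 0.324, edgeR's adjusted p = 0.0997). HMMR, a spindle protein and hyaluronan receptor whose gene overlaps NUDCD2 on the opposite strand, stood at 2.38, 3.12 and 2.90 CPM in H − N and 11.2, 16.7 and 13.7 CPM in L + N, and its log2 fold change was −2.31 (standard error 0.410, edgeR's adjusted p = 0.0917). For these 3 genes the highest H − N library stayed below the lowest L + N library.

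SGO2, which protects centromeric cohesion, stood at 2.38, 3.95 and 3.52 CPM in H − N and 7.96, 15.1 and 10.5 CPM in L + N (log2 fold change −1.77, standard error 0.337, edgeR's adjusted p = 0.0917). DLGAP5, a spindle assembly factor whose gene overlaps LOC110262214 on the opposite strand, stood at 4.82, 6.24 and 7.31 CPM in H − N and 18.6, 21.8 and 20.5 CPM in L + N (log2 fold change −1.73, standard error 0.358, edgeR's adjusted p = 0.0917). CENPF, a kinetochore protein, stood at 11.8, 12.4 and 14.6 CPM in H − N and 29.0, 46.2 and 40.4 CPM in L + N (log2 fold change −1.58, standard error 0.375, edgeR's adjusted p = 0.119). Again, all H − N libraries lay below all L + N libraries. MKI67, the usual marker of dividing cells, differed less, with a mean of 65.7 ± 9.5 CPM in H − N and of 109.7 ± 24.7 CPM in L + N (SD over 3 libraries each). Its log2 fold change of −0.74 had a 95% interval of −1.47 to −0.00471 and an adjusted p of 0.278 by edgeR's test. In bulk tissue, fewer dividing cells and less RNA per cell cannot be told apart.

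Outside that list, CEP135, a centriole protein (chromosome 8, 55250902 to 55323396), had the smallest unadjusted p of all genes. It stood at 13.0, 14.6 and 17.1 CPM in H − N and at 34.8, 41.7 and 36.3 CPM in L + N, a log2 fold change of −1.34 with a 95% interval of −1.72 to −0.95 (edgeR's adjusted p = 0.0917, DESeq2's 5.14e-08). Each library left out in turn kept it between −1.45 and −1.24. CEP162, which acts at the base of the cilium, stood at 11.2, 16.6 and 13.8 CPM in H − N and 32.1, 35.1 and 32.7 CPM in L + N. Both centrosomal genes were thus well below L + N in every H − N library.

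The side-by-side values against the basal diet show where each group stood. Against L − N, the median log2 fold change of the mitosis genes was 0.71 for H − N, 1.42 for L + N and 1.34 for H + N, all computed against the same L − N libraries. Those libraries were uneven, with mitosis levels of −1.22, −0.23 and −1.39, so that L − N replicate 2 lay close to the H − N libraries. SMC4 averaged 13.2 ± 3.54 CPM in L − N and 44.7 ± 7.47 CPM in H + N (SD over 3 libraries each), which set H − N near L − N and L + N near H + N for this gene. CEP135 averaged 11.7 ± 1.24 CPM in L − N and 30.8 ± 6.05 CPM in H + N, and HMMR 2.47 ± 1.79 and 9.67 ± 1.28 CPM, in the same order.

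**Figure D3:**
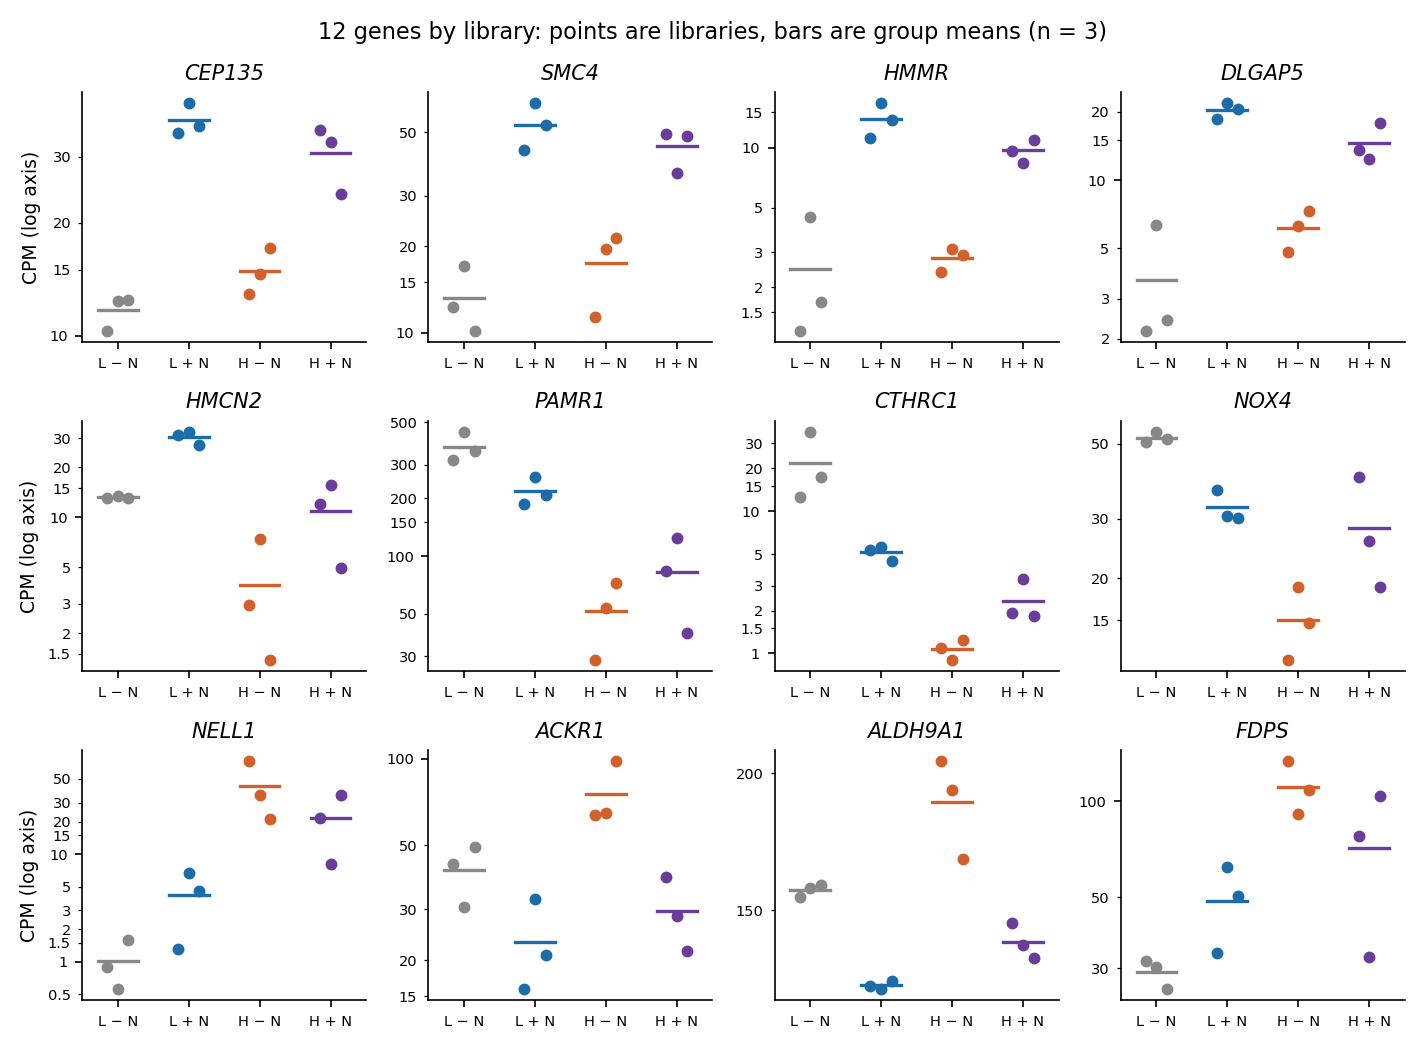
CPM on a log axis for 12 genes in the 4 groups; each point is 1 of 3 libraries and each bar the group mean. H − N (orange) lies below L + N (blue) in every library for the first 8 genes and above it in every library for the last 4.

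Lists of DNA replication and repair genes differed, and most but not all leaned lower in H − N. For comparison, 8.02% of all genes were higher and 9.81% lower at an unadjusted p under 0.05. Of 51 genes in the DNA replication list, 42 had a negative fold change and 9 an unadjusted p under 0.05, all lower. In 18 of them every H − N library lay below every L + N library, beside 14.5% of all genes. The median of the list was −0.26. Its library level overlapped between the groups, from −0.30 to 0.05 in H − N and from −0.002 to 0.42 in L + N. In the KEGG DNA replication pathway 3 of 34 genes were higher and 2 lower at that level, with a median of −0.05 that was 0.09 without H − N replicate 3. The biological process DNA replication had 10 lower and 5 higher of 76, and DNA repair 28 lower and 12 higher of 156. Outside that list, ATM, the kinase that signals DNA breaks, stood at 42.6, 61.3 and 62.2 CPM in H − N and 94.5, 102 and 84.4 CPM in L + N (log2 fold change −0.76, standard error 0.142, edgeR's adjusted p = 0.0917). ATR, the kinase of stalled forks, stood at 17.1, 28 and 26.3 CPM in H − N and 34.7, 50.6 and 48.6 CPM in L + N (log2 fold change −0.91, standard error 0.202, edgeR's adjusted p = 0.102). Neither gene overlapped between the groups. In the KEGG Fanconi anemia pathway 13 of 48 genes were lower at an unadjusted p under 0.05 and 0 higher, and in Homologous recombination 10 of 39 were lower and 0 higher. Their medians were −0.13 and −0.12. Without H − N replicate 3 these were −0.09, with 19 genes above 0 and 29 below, and −0.03, with 17 above and 22 below. The broader KEGG Cell cycle pathway, with 118 genes, had 22 lower and 5 higher and a median of −0.10. Of 44 cyclin-dependent kinase inhibitors and p53 targets, 9 were lower and 2 higher, and CDKN2B, an inhibitor of the G1 kinases, stood at 11.8, 10.4 and 10.6 CPM in H − N and 26.5, 34.1 and 26.6 CPM in L + N.

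Ribosomal protein genes were higher in H − N. Of 120 genes of the KEGG Ribosome pathway, 117 had a positive log2 fold change, 88 had every H − N library above every L + N library, 75 had an unadjusted p under 0.05 and 1 was lower at that level, and 0 passed the adjusted edgeR test. DESeq2 called 1. The 75 Ribosome genes became 32 when L + N replicate 1 was left out and 43 when H − N replicate 1 was. The Ribosome median was 0.43, and the library level was 0.39, 0.29 and 0.07 in H − N and −0.29, −0.21 and −0.13 in L + N. RPL27, of the large subunit (chromosome 12, 19892210 to 19894202), stood at 396, 396 and 362 CPM in H − N and 280.1, 289 and 272 CPM in L + N (log2 fold change 0.46, standard error 0.109, edgeR's adjusted p = 0.119). RPS16, of the small subunit, stood at 579.8, 597 and 491 CPM in H − N and 278, 344 and 374 CPM in L + N (log2 fold change 0.74, standard error 0.189, edgeR's adjusted p = 0.124). The differences were below 2-fold for both, with no overlap between the groups. Against L − N, the Ribosome median was 0.29 for H − N and −0.18 for L + N. The L − N levels were uneven, at 0.21, −0.24 and −0.17, with L − N replicate 1 above H − N replicate 3. Many ribosomal protein genes have processed copies, and their counts may be shared among them.

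Genes of energy metabolism, ribosome assembly and protein export lay on the same side by less. Of 123 genes of KEGG Oxidative phosphorylation, 104 had a positive log2 fold change, 23 had an unadjusted p under 0.05 and 0 were lower at that level, with a median of 0.23. The 23 became 5 when L + N replicate 1 was left out, 11 when H − N replicate 1 was, and 14 when L + N replicate 3 was. NDUFB5, a subunit of complex I, stood at 41.5, 39.8 and 37.9 CPM in H − N and 29.2, 33.9 and 33.1 CPM in L + N, and ATP5B, a subunit of ATP synthase, at 556, 433 and 541 CPM in H − N and 331, 376 and 382 CPM in L + N. KEGG Ribosome biogenesis in eukaryotes had 28 of 71 genes higher and 4 lower, with a median of 0.32, and KEGG Protein export 9 of 23 higher and 1 lower. The shares of all genes at an unadjusted p under 0.05 were 8.02% higher and 9.81% lower. The counts for translation, energy and secretion genes thus leaned to H − N, each by less than 1.5-fold in the median.

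The fold change also followed the length of the gene. The median log2 fold change was 0.25 for the 785 genes up to 1000 bases, 0.05 for genes of 3000 to 4000 bases, −0.14 for genes of 8000 to 12000 bases and −0.18 for the 741 genes over 12000 bases. Against L − N, the longest class stood at 0.03 in H − N and 0.19 in L + N and the shortest at −0.01 and −0.27, so the gradient was wider in L + N against L − N than in H − N against L − N. H + N against L − N ran from −0.07 to 0.17. Ribosome genes had a median length of 918 bases and Oxidative phosphorylation genes of 994 bases. With the median of each length class subtracted, the Ribosome median was 0.25, with 107 of 120 genes above 0, and that of Oxidative phosphorylation was 0.02, with 70 of 123 above 0. Mitosis genes had a median length of 3506 bases, and their median was −0.71 after the same subtraction, with 92 of 93 below 0. The subtraction was chosen after seeing the data, and the part of RNA quality or library preparation in the length gradient was not tested.

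**Figure D4:**
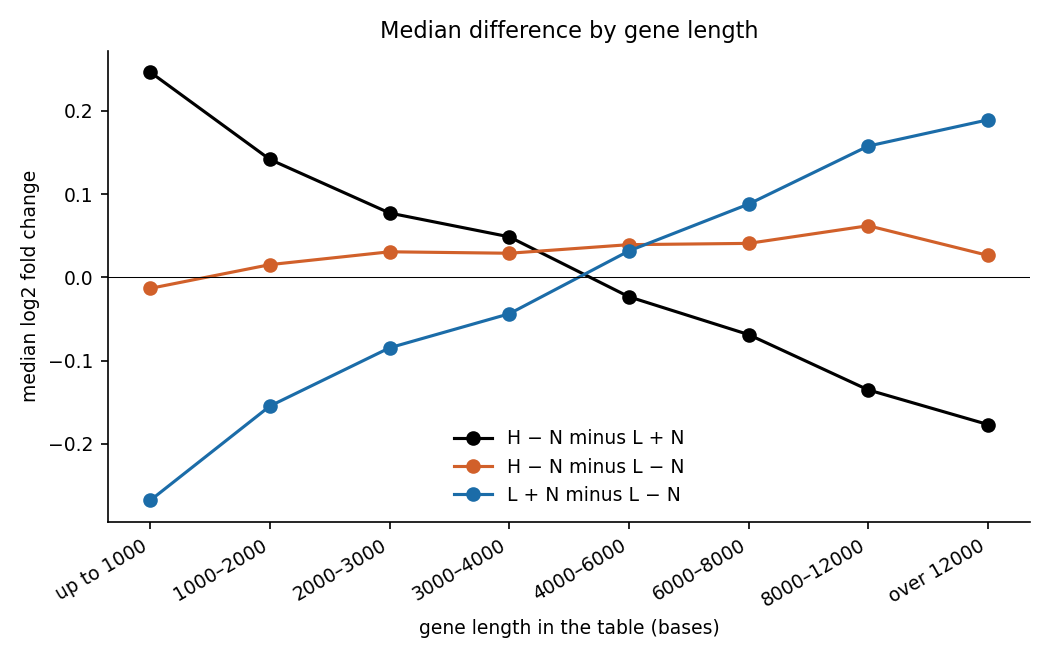
Median log2 fold change of all genes tested in 8 classes of gene length (bases, horizontal axis) for H − N minus L + N (black) and for each group minus L − N (orange for H − N, blue for L + N). The black line runs from 0.25 in the shortest class to −0.18 in the longest, and the orange line stays between −0.01 and 0.06.

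Genes of cholesterol synthesis were higher in H − N, but unevenly across its libraries. Of 24 members tested, 23 had a positive log2 fold change, 13 had an unadjusted p under 0.05, all higher, 6 had no overlap between the groups, and 0 passed the adjusted edgeR test. DESeq2 called 3. The median of the cholesterol list was 0.92, and against L − N it was 1.0 for H − N and 0.08 for L + N. FDPS, which makes farnesyl diphosphate (chromosome 4, 94500140 to 94514820), stood at 133, 91.0 and 109 CPM in H − N and 33.4, 62.4 and 50.4 CPM in L + N (log2 fold change 1.19, standard error 0.353, edgeR's adjusted p = 0.141). MSMO1, a sterol oxidase, stood at 74.1, 49.0 and 141 CPM in H − N and 42.3, 42.4 and 39.1 CPM in L + N. INSIG1, a sterol-responsive regulator of the pathway, stood at 53, 27.9 and 113 CPM in H − N and 31.3, 25.4 and 24.9 CPM in L + N, so that H − N replicate 2 lay within the L + N range. The library level of the list was 0.57, −0.26 and 1.39 in H − N and −0.22, −0.11 and −0.29 in L + N, so that H − N replicate 2 was not above L + N. Without H − N replicate 3 the median was 0.44, with 21 members above 0 and 4 at an unadjusted p under 0.05. Those 13 became 6, 7 and 8 without L + N replicate 1, L + N replicate 3 and H − N replicate 1.

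**Figure D5:**
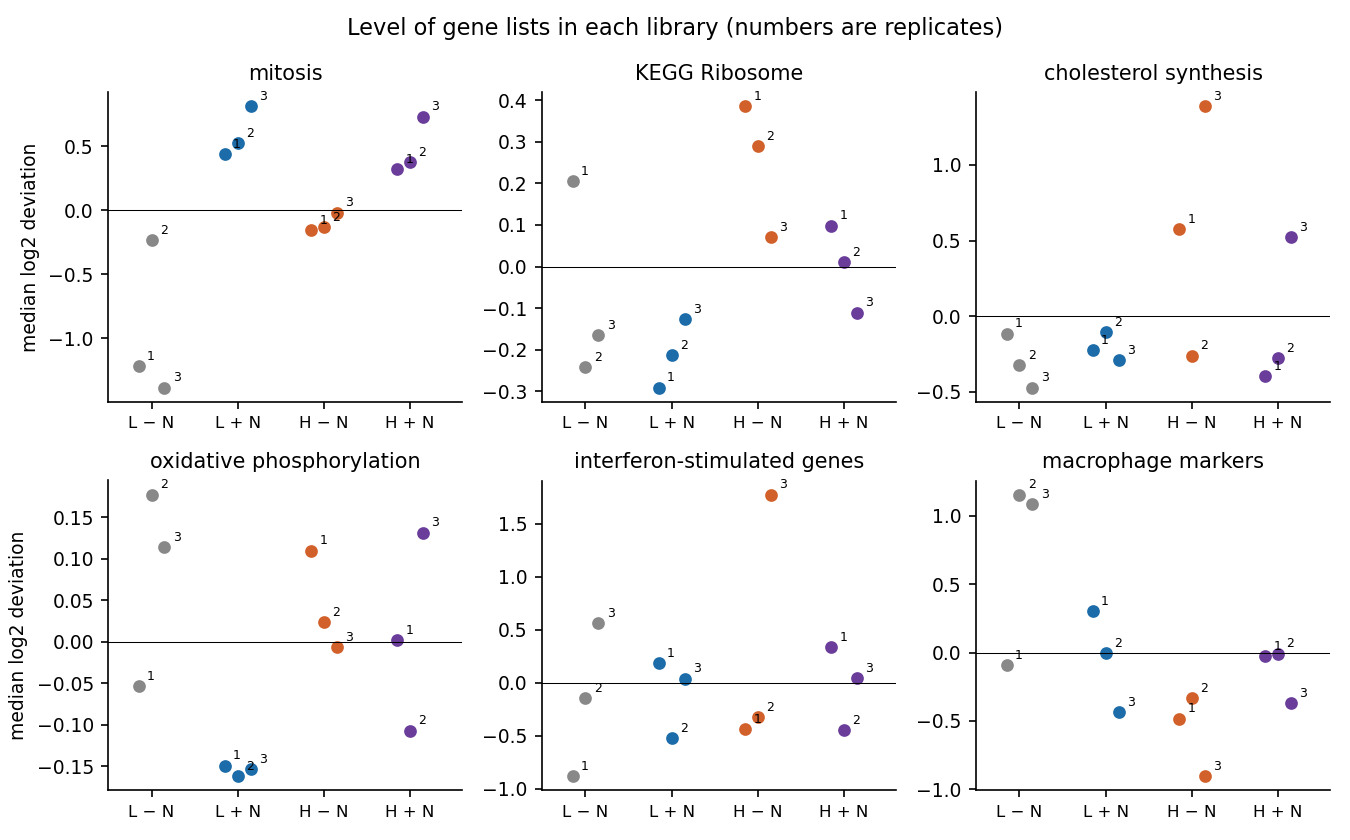
Level of 6 gene lists in each library of the 4 groups, as the median over members of the log2 deviation from each gene's mean over 12 libraries; the small numbers are the replicates. Mitosis separates H − N from L + N in every library, while the interferon-stimulated genes stand at 1.78 in H − N replicate 3 alone.

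Among genes of the extracellular matrix, single glycoproteins stood far apart between the groups. Of 46 matrix glycoproteins and proteoglycans, 8 were lower and 1 higher in H − N at an unadjusted p under 0.05. The shares of all genes were 9.81% and 8.02%. DESeq2 called 4 members lower and 1 higher. Outside that list, HMCN2, a hemicentin of the matrix (chromosome 1, 270364005 to 270522977), stood at 2.95, 7.35 and 1.38 CPM in H − N and 31.4, 32.5 and 27.2 CPM in L + N (log2 fold change −2.97, standard error 0.526, edgeR's adjusted p = 0.0917). PAMR1, a secreted protein of muscle regeneration whose gene overlaps FJX1 on the opposite strand, stood at 28.8, 53.7 and 72.3 CPM in H − N and 187, 259.7 and 208 CPM in L + N (log2 fold change −2.08, standard error 0.399, edgeR's adjusted p = 0.0917). CTHRC1, a secreted regulator of collagen deposition, stood at 1.09, 0.902 and 1.24 CPM in H − N and 5.34, 5.65 and 4.45 CPM in L + N (log2 fold change −2.25, standard error 0.409, edgeR's adjusted p = 0.0917). All 3 genes were lower in every H − N library. In L − N, CTHRC1 and PAMR1 stood above both groups, with means of 22 ± 12.3 and 371 ± 64.8 CPM (SD over 3 libraries each), while HMCN2, with 13.2 ± 0.273 CPM, stood between them.

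POSTN (periostin, a matricellular protein of remodeling stroma) stood at 15.9, 3.95 and 11.9 CPM in H − N and 66.7, 66.5 and 50.8 CPM in L + N (log2 fold change −2.53, standard error 0.573, edgeR's adjusted p = 0.104). NELL1, a secreted osteogenic factor, went the other way (chromosome 2, 37809080 to 38754520). It stood at 72.3, 35.4 and 21.0 CPM in H − N and 1.31, 6.70 and 4.51 CPM in L + N, a log2 fold change of 3.37 with a 95% interval of 1.85 to 4.90 (edgeR's adjusted p = 0.0917, DESeq2's 0.000107). It averaged 1.02 ± 0.536 CPM in L − N and 21.6 ± 13.5 CPM in H + N, and every high-fiber library lay above every low-fiber library. Of 33 collagen chains, 4 were lower and 0 higher at an unadjusted p under 0.05, beside 9.81% and 8.02% of all genes. Their median was 0.24, and it was −0.05 without H − N replicate 3. COL1A1 had a log2 fold change of 0.42 with a 95% interval of −0.42 to 1.25, so neither direction was shown.

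Macrophage markers lay mostly lower in H − N, with overlap between the groups in their library level. Of 13 macrophage markers, all detected, 12 had a negative log2 fold change and 4 an unadjusted p under 0.05, all lower, with a median of −0.47, and DESeq2 called 0. At an unadjusted p under 0.05, 9.81% of all genes were lower and 8.02% higher. In 5 of the 13 markers every H − N library lay below every L + N library, beside 14.5% of all genes. The summed level of the macrophage markers, to which abundant members add most, was 787 to 1111 CPM in H − N and 1238 to 1796 CPM in L + N. Their library level was −0.48, −0.33 and −0.90 in H − N and 0.30, −0.01 and −0.43 in L + N, so that L + N replicate 3 lay below H − N replicate 2. C1QB, a chain of the first complement component made by macrophages, stood at 196, 215 and 144 CPM in H − N and 381, 323 and 262 CPM in L + N (log2 fold change −0.80, standard error 0.298, edgeR's adjusted p = 0.209). Of 29 complement genes, 7 were lower and 2 higher at an unadjusted p under 0.05, with a median of −0.28, and 10 had a positive fold change. Its library level also overlapped, at −0.47, −0.43 and −0.20 in H − N and 0.29, 0.19 and −0.28 in L + N. In KEGG Complement and coagulation cascades, 8 were lower and 6 higher of 64, with a median of −0.09, near the shares over all genes. The terminal component C9 stood at 1.76, 2.91 and 2.28 CPM in H − N and 7.57, 10.1 and 6.93 CPM in L + N (log2 fold change −1.82, standard error 0.389, edgeR's adjusted p = 0.0997). The list of lysosomal genes had 9 lower and 1 higher of 57, with a median of −0.17, while KEGG Lysosome, with 12 lower and 5 higher of 119 and a median of −0.06, was near the 9.81% lower over all genes. Against L − N, the macrophage median was −1.56 for H − N and −0.80 for L + N. The L − N libraries were uneven, at −0.09, 1.16 and 1.08, so that L − N replicate 1 lay below L + N replicate 1. Whether the complement and lysosomal values moved with the number of macrophages was not tested.

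The NADPH oxidase genes, which make superoxide, had 4 lower and 0 higher of 15 at an unadjusted p under 0.05 (all genes, 9.81% and 8.02%). NOX4, an oxidase of stromal and vascular cells (chromosome 9, 22622105 to 22776691), stood at 11.5, 18.9 and 14.8 CPM in H − N and 36.6, 30.6 and 30.1 CPM in L + N (log2 fold change −1.11, standard error 0.252, edgeR's adjusted p = 0.104, DESeq2's 0.00375). DESeq2 called 3 of the 15, all lower. Of 42 antioxidant enzymes, 6 were higher and 2 lower, and 33 had a positive fold change, with a median of 0.20 that was 0.05 after the subtraction of the length classes. SOD1, the cytosolic superoxide dismutase, stood at 55.8, 64.8 and 58.3 CPM in H − N and 46.6, 51.9 and 42.8 CPM in L + N.

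Interferon-stimulated genes stood out in 1 library. Of 41 members, 37 had a positive log2 fold change, with a median of 0.65. At an unadjusted p under 0.05, 3 were higher and 0 lower, beside 8.02% and 9.81% of all genes. The library level of the list was −0.44, −0.32 and 1.78 in H − N and 0.19, −0.53 and 0.04 in L + N. CXCL11, an interferon-induced chemokine whose gene overlaps ART3 on the opposite strand, stood at 2.59, 1.32 and 161 CPM in H − N and 2.86, 2.1 and 1.37 CPM in L + N. OASL, an antiviral protein, stood at 0.777, 0.347 and 41.9 CPM in H − N and 0.534, 0.582 and 2.29 CPM in L + N. In both genes H − N replicate 3 stood far above all 5 other libraries. Without it the median of the list was −0.40, with 34 of 41 members below 0. The neutrophil markers were also highest in H − N replicate 3, with summed levels of 51.2, 24.0 and 344 CPM in H − N against 39.8 to 167 CPM in L + N. Unlike the interferon-stimulated genes, they were spread widely within both groups. Their library level was −0.25, −1.45 and 2.78 in H − N and 1.96, 1.09 and −0.69 in L + N. Their median was 0.62, and it was −2.25 without H − N replicate 3.

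Genes of arginine, nitric oxide and polyamines stood slightly higher in H − N. Of 33 members, 5 were higher and 2 lower at an unadjusted p under 0.05, beside 8.02% and 9.81% of all genes. In 11 members every H − N library lay above every L + N library and in 2 below, beside 14.6% and 14.5% of all genes. The median was 0.18 (0.10 after the subtraction of the length classes), and members ranged from −3.25 to 1.0. The library level was 0.06, 0.03 and 0.18 in H − N and −0.03, −0.11 and −0.04 in L + N, without overlap. The narrower KEGG Arginine biosynthesis pathway did not share this lean, with 1 higher and 3 lower of 16. Its median was 0.09 (0.01 after the subtraction). Its library level overlapped, at 0.008, 0.010 and 0.114 in H − N and 0.044, 0.038 and 0.067 in L + N. SLC7A1, the main transporter of arginine into cells (chromosome 11, 6538053 to 6604654), stood at 79.1, 75.7 and 68.0 CPM in H − N and 29.7, 39.0 and 42.4 CPM in L + N (log2 fold change 1.0, standard error 0.291, edgeR's adjusted p = 0.137, DESeq2's 0.0307). Its groups did not overlap. AZIN1, which protects ornithine decarboxylase from degradation, stood at 253, 276 and 345 CPM in H − N and 209, 233 and 217 CPM in L + N. For ARG2, ODC1, NOS3 and ASS1 the log2 fold changes were 0.04, 0.18, 0.38 and 0.13. The interval of ARG2, the mitochondrial arginase, was −0.37 to 0.45, and that of ODC1, the first enzyme of polyamine synthesis, was −0.22 to 0.58, so differences of 2-fold were outside them. The intervals of NOS3, the endothelial nitric oxide synthase, and of ASS1, argininosuccinate synthase, reached 1.07 and 1.14. CPS1, the target of N-acetylglutamate, was too low to be tested.

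The 289 genes of the KEGG PI3K-Akt pathway had 17 higher and 26 lower at an unadjusted p under 0.05, beside 8.02% and 9.81% of all genes. Their median was 0.03, close to that of all genes. PIK3CA, a catalytic subunit of PI3-kinase whose gene overlaps LOC110256340 on the same strand, stood at 20.9, 38.1 and 45.5 CPM in H − N and 66.7, 79.5 and 60.5 CPM in L + N (log2 fold change −0.99, standard error 0.258, edgeR's adjusted p = 0.125). RICTOR, of mTOR complex 2, stood at 22, 42.6 and 50.9 CPM in H − N and 67.9, 74.8 and 62.9 CPM in L + N (log2 fold change −0.83, standard error 0.257, edgeR's adjusted p = 0.149). Both were lower in H − N in every library. Their list of 41 PI3K-Akt-mTOR kinases and regulators was balanced, with 4 higher and 4 lower at an unadjusted p under 0.05. In that list 21 members were above 0 and 20 below, with a median of 0.03. Among the 18 tested genes that the study names, 2 were higher and 3 lower at that level. NTRK2, a neurotrophin receptor, stood at 160.4, 117 and 64.8 CPM in H − N and 49.2, 47.8 and 53.6 CPM in L + N (log2 fold change 1.18, standard error 0.271, edgeR's adjusted p = 0.106). ITGB8, an integrin subunit that activates latent TGF-beta, stood at 31.1, 50.3 and 82.8 CPM in H − N and 77.8, 115 and 81.3 CPM in L + N, and the groups overlapped. For VEGFA, the vessel growth factor, the log2 fold change was 0.21, with an interval of −0.46 to 0.88. The list was chosen by the study on these samples and is no independent evidence of a direction.

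Receptors for the ovarian steroids overlapped between the groups. ESR1, an estrogen receptor, averaged 811 ± 211 CPM in H − N and 876 ± 118 CPM in L + N, and PGR, the progesterone receptor, 51.0 ± 3.34 and 44.2 ± 12.3 CPM (SD over 3 libraries each). Their log2 fold changes were −0.11, with an interval of −0.58 to 0.36, and 0.21, with −0.49 to 0.91. OXTR, the oxytocin receptor, stood at 92.1, 104 and 50.3 CPM in H − N and 125, 243 and 195 CPM in L + N (log2 fold change −1.19, standard error 0.396, edgeR's adjusted p = 0.174). HSD11B1, which regenerates active cortisol and whose gene overlaps C9H1orf74 on the opposite strand, stood at 104, 80.5 and 277 CPM in H − N and 57.5, 55.3 and 54.5 CPM in L + N (log2 fold change 1.46, standard error 0.475, edgeR's adjusted p = 0.164). OXTR was lower and HSD11B1 higher in every H − N library, and HSD11B1 was highest in H − N replicate 3.

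Other genes with the smallest p-values, chosen after their values were seen, fell in several groups. Of those higher in H − N, ACKR1, the atypical chemokine receptor of venular endothelium (chromosome 4, 91224089 to 91225610), stood at 63.9, 64.7 and 97.8 CPM in H − N and 15.9, 32.7 and 20.8 CPM in L + N (log2 fold change 1.71, standard error 0.309, edgeR's adjusted p = 0.0917, DESeq2's 0.000107). PECAM1, a junction protein of endothelium, stood at 293, 293 and 334 CPM in H − N and 213, 170.2 and 184 CPM in L + N (log2 fold change 0.70, standard error 0.195, edgeR's adjusted p = 0.134). The 11 endothelial markers summed to 1261 to 1351 CPM in H − N and 956 to 1158 CPM in L + N. Beside 8.02% of all genes, 1 of them was higher at an unadjusted p under 0.05, but 4 of them had a negative fold change. Their library level overlapped, at −0.08, 0.02 and −0.10 in H − N and −0.07, −0.49 and −0.16 in L + N, and whether ACKR1 moved with the number of endothelial cells was not tested. ALDH9A1, which oxidizes aminoaldehydes, stood at 205, 193 and 167 CPM in H − N and 128, 127 and 129 CPM in L + N (log2 fold change 0.56, standard error 0.0973, edgeR's adjusted p = 0.0917). HK1, a hexokinase, stood at 181, 160.3 and 161 CPM in H − N and 117, 123 and 116 CPM in L + N. LGI2, a secreted leucine-rich protein, stood at 13.8, 6.73 and 28 CPM in H − N and 1.07, 4.08 and 2.03 CPM in L + N. These genes stayed above every L + N library in all H − N libraries.

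Of those lower in H − N, MALT1, a paracaspase of NF-kappaB signaling (chromosome 1, 162076933 to 162144915), stood at 14, 17.7 and 16.6 CPM in H − N and 37.8, 41.1 and 32.0 CPM in L + N (log2 fold change −1.20, standard error 0.189, edgeR's adjusted p = 0.0917). S100A4, a calcium-binding protein of motile and stromal cells, stood at 2.95, 3.74 and 4.48 CPM in H − N and 8.40, 11.4 and 10.8 CPM in L + N (log2 fold change −1.45, standard error 0.240, edgeR's adjusted p = 0.0917). HOXD3, a homeobox factor, stood at 10.3, 9.78 and 8.62 CPM in H − N and 18.5, 17.4 and 23.3 CPM in L + N. The immediate early factor EGR1 stood at 39.3, 44.5 and 33.5 CPM in H − N and 69.4, 107 and 73.7 CPM in L + N (log2 fold change −1.10, standard error 0.240, edgeR's adjusted p = 0.101). Of 22 immediate early and handling response genes, only EGR1, FOSB and EGR3 were lower at an unadjusted p under 0.05 and 0 were higher. The share lower over all genes was 9.81%. The level of that list was −0.52, −0.42 and 0.21 in H − N and −0.15, 0.10 and 0.06 in L + N. The groups thus overlapped, and H − N replicate 3 was the highest library of the comparison. The plasminogen activator inhibitor SERPINB2 had at most 3 counts in each H − N library. By group means it was at least 6.07-fold lower there than in L + N, where it stood at 1.16, 1.51 and 0.785 CPM. The sodium channel SCN1A, also at the floor of 3 counts in H − N, was at least 10.98-fold lower by group means, with 3.06, 2.1 and 1.11 CPM in L + N.

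By the annotation in the deposited table, 306 KEGG pathways held 15 to 300 genes tested. Those with the largest share of genes higher at an unadjusted p under 0.05 were Ribosome (62.5%), Ribosome biogenesis in eukaryotes (39.4%), Protein export (39.1%), the coronavirus pathway, which holds the ribosomal proteins (38.9%), and RNA polymerase (36.7%), against 8.02% of all genes. Those with the largest share lower were Fanconi anemia (27.1%), the renin-angiotensin system (26.7%), Homologous recombination (25.6%), taste transduction (23.7%) and nicotine addiction (22.2%), against 9.81%. Among 988 biological process terms of that size, the higher side was led by cytoplasmic translation, with 16 of 28 genes, and the lower side by centriole replication, with 9 of 20 genes and a median of −0.44. No gene of these terms passed the adjusted edgeR test, and the median of each stayed within 0.5 of 0 on the log2 scale.

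H + N and L − N share no library with the comparison, but all 12 libraries were fitted in 1 model. The 352 genes called higher in H + N than in L − N by edgeR stood at a median of −0.64 on the log2 scale when H − N was compared with L + N, and 286 of them were below 0, 168 at an unadjusted p under 0.05. The 197 genes called lower in H + N had a median of −0.30, with 158 below 0 and 36 lower at that level. Of all 15351 genes tested, 7371 were below 0 and 9.81% were lower at that level. H + N against L − N followed gene length in the same direction as L + N against L − N. The part of gene length in these counts was not tested. Genes that were higher with both supplements together were thus mostly lower with fiber alone than with NCG alone, and genes that were lower with both were also mostly lower with fiber alone.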

How the data were processed

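The authors deposited 1 table with a raw read count and an FPKM value per gene and library. The submitters' processing notes name fastp 0.22.0, HISAT2 2.1.0, HTSeq 0.9.1 and the build Sscrofa11.1. Strand-specific poly(A) libraries are described in the study's methods, and whether counting used the strand is not given in the sources used here. The deposited FPKM values were not used. Genes were filtered by filterByExpr, which left 15351 of 20674, scaled by TMM, and fitted with edgeR 4.0.16 (R 4.3.3) in 1 quasi-likelihood model over all 12 libraries with 8 residual degrees of freedom and no replicate block. DESeq2 1.42.0 and limma-voom (limma 3.58.1) served as alternatives. In simulated data with 200 genes changed by 2 on the log2 scale, edgeR recovered 80.8% and DESeq2 87.7%, with 5.2 and 28 false calls on average. The simulated counts were independent between genes and held no outlying library and no length gradient. Recovery of smaller differences was not tested.

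The labels name replicates without animals, so p-values measure the spread between these libraries. Counts of 14369781 to 19309724 per library, with a biological coefficient of variation of 0.27, leave the spread between libraries as the main limit. The comparison, the gene lists and the rule for named genes (the largest and most significant called genes, up to 3 called genes or the 2 smallest p-values per list, and fixed names) were chosen with earlier results of these data known. As edgeR called no gene, the genes with the smallest p-values and the largest non-overlapping differences were added after their values were seen. Bounds on fold changes use a floor of 3 counts per library, compare group means and do not include sampling error. Some genes are not reported here.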

Additional observations from a re-analysis of the deposited data

How the results depend on the processing

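The count of genes called was 0 under edgeR on the 6 libraries alone, RLE or upper quartile scaling, no filter, a minimum of 1 CPM, no threshold on the fold change, and without each library in turn (0 to 0), and by limma-voom. DESeq2 gave 287 genes on 12 libraries (42 higher, 245 lower) and 377 on 6 (80 higher, 297 lower), with 265 called by both. The alternatives for unadjusted p-values were chosen after seeing the data. Without 1 library, 555 to 1189 genes were higher and 997 to 1524 lower at an unadjusted p under 0.05. The replicate block gave 0 genes, and the libraries share only a number: deviations of same-numbered libraries correlated at 0, −0.047 and −0.193, and not every library correlated best with its own number.

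Without 1 library, the median log2 fold change was −0.79 to −0.59 for mitosis, 0.44 to 1.30 for cholesterol synthesis, 0.18 to 0.26 for Oxidative phosphorylation and 0.38 to 0.53 for Ribosome, and after subtraction of the length classes the last 2 were 0.017 and 0.25. Members at an unadjusted p under 0.05 then numbered 27 to 47 for mitosis (69 with edgeR on 6 libraries), 4 to 18 for cholesterol synthesis, 5 to 24 for Oxidative phosphorylation and 32 to 80 for Ribosome. The low ends came without H − N replicate 1 for mitosis, without H − N replicate 3 for cholesterol synthesis, and without L + N replicate 1 for the other 2.

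Of 213 genes followed, 11 changed sign when 1 library was left out. Without 1 library, the log2 fold change ranged from −0.11 to 5.26 for CXCL11, −0.96 to 4.62 for OASL, −2.49 to 2.42 for S100A9, −0.18 to 0.88 for IRF4, −0.092 to 3.10 for VNN1, −0.23 to 0.091 for ESR1, −0.66 to 0.51 for ASS1 and −0.021 to 0.50 for IL4R, each with the changed sign without H − N replicate 3, and for ASS1 also without L + N replicate 3. ARG2 ranged from −0.040 to 0.11, MYB from −0.28 to 0.054 and GNB3 from −0.80 to 0.059. The cause of these changes was not tested. With 3 libraries a side, the 95% interval of 63.2% of genes lay within −1 and 1, and for the other genes a difference of 2-fold or more was not outside it.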

Other observations

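Gene families were grouped by the start of their symbol, a choice made after the values were seen, and they carry no test. At an unadjusted p under 0.05, 8.02% of all genes were higher and 9.81% lower. Of 89 cytosolic ribosomal protein genes (RPL and RPS), 66 were higher in H − N at an unadjusted p under 0.05 and 0 lower, with a median log2 fold change of 0.49. Mitochondrial ribosomal protein genes (MRPL and MRPS) had 16 of 73 higher and 1 lower, and proteasome genes (PSM) 11 of 47 higher and 0 lower, with medians of 0.23 and 0.26 that were 0.08 and 0.09 after subtraction of the length classes. On the other side stood 35 genes of centrosomal proteins (CEP), with 18 lower and 0 higher and a median of −0.52, and 37 kinesin genes (KIF), with 12 lower and 0 higher and a median of −0.45. These medians were −0.49 and −0.45 after the subtraction. Of 272 zinc finger genes (ZNF, ZFP and ZSCAN), 55 were lower and 6 higher, with a median of −0.10.

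The epithelial markers were higher in H − N replicate 3 than in any other library of the comparison, with a summed level of 3987 CPM against 1913 and 2357 CPM in the other H − N libraries and 1967 to 2143 CPM in L + N. CDH1, the adherens junction protein of epithelium, stood at 726, 612 and 1038 CPM in H − N and 526, 532 and 527 CPM in L + N. HDC, the histamine-forming enzyme, stood at 34.0, 27.6 and 303 CPM in H − N and 17.3, 28.7 and 18.1 CPM in L + N. The 14 ciliated cell markers summed to 755 CPM in H − N replicate 3 and to 338 to 464 CPM in the 5 other libraries.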
